A study of Mus musculus with 12 samples.

Results

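The 9 genes Plau, Plat, Plaur, Serpine2, F3, Tfpi, Thbs1, Thbd and Procr encode parts of plasminogen activation and of blood coagulation and its control. They were taken by gene symbol, and all 9 were found among the 17734 genes of the deposited table and were tested. The RNA came from the bowel of 12 adult male C57BL/6 mice, 3 in each of 4 groups. Normal mice had neither agent. Colitis mice drank water with dextran sulfate sodium (DSS), a polymer that injures the bowel lining, for 7 days. The other 2 groups were normal and colitis mice that were also given berberine (BBR), a plant alkaloid, by gavage for 6 days according to the sample labels. The study's methods describe daily dosing over the whole span of DSS treatment, which is longer than the labels give. The labels call the tissue colorectum and the study's methods call it rectum, and each library holds the RNA of a whole tissue piece. Each value is an expression level per gene and mouse, read as FPKM, fragments scaled by transcript length and sequencing depth, so that levels of different genes can be set side by side.

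Plasminogen is cut to plasmin, the protease that dissolves fibrin clots and also acts on matrix proteins, by urokinase (Plau) and by tissue plasminogen activator (Plat). Urokinase works at the cell surface bound to its receptor (Plaur), and protease nexin-1 (Serpine2) is a serpin that blocks both activators as well as thrombin. Coagulation starts when tissue factor (F3) meets factor VII. The tissue factor pathway inhibitor (Tfpi), thrombomodulin (Thbd) and the endothelial protein C receptor (Procr) hold it back, the last 2 by helping thrombin to activate the anticoagulant protein C. Thrombospondin-1 (Thbs1) is a matrix and platelet granule protein that binds Cd36 and Cd47. Plaur is known from leukocytes and from migrating epithelium. Many of the anticoagulant proteins sit on the endothelium of blood vessels, while tissue factor is kept by cells outside the vessel.

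In colitis the activator Plat and the receptor Plaur were the members with the largest differences from normal mice, and every colitis mouse lay above every normal mouse for both. Tfpi and Procr had the opposite order, with every colitis mouse below every normal mouse. Of all tested genes, 7.1% were higher and 22.2% lower in colitis without overlap. Plau, Serpine2, F3, Thbs1 and Thbd overlapped between these groups. None of the 9 genes passed the limit of 0.05 on the adjusted p in any of the 5 comparisons. With a block for the mice numbered 4, which stand apart, Plat, Plaur and Tfpi passed it in colitis against normal, where 9.22% of all tested genes passed, against 1.08% without the block. Without the block, Plat, Plaur, Tfpi and Procr passed 0.05 on the unadjusted P there, and Tfpi and Procr did not with quantile normalization or median centring. As deposited, 5.56% of all genes were higher and 15.9% lower at that P. In colitis mice receiving BBR, Plau was lower than in every colitis mouse, and Plat and Plaur overlapped with colitis. Lower values without overlap in this comparison made up 5.66% of all genes.

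The promoter windows of the members that stood at the ends of this order, Plaur at the upper end and Tfpi and Procr at the lower, are shown beside that of F3, the trigger of coagulation. The RefSeq promoter table, on build GRCm38.p6, has windows of 250 bases before to 50 bases after a start site. It matched 5 of the 9 members, Plaur, Serpine2, F3, Tfpi and Procr, and Plau, Plat, Thbs1 and Thbd were not matched. The coordinates are of that build, not of mm9, the build named in the submitters' processing notes. Each line gives the 250 bases before the start, 5′ to 3′ on the gene's own strand, and capitals mark matches to any of 4 motifs searched on both strands.
Plaur, chr7:24462233-24462482, plus strand: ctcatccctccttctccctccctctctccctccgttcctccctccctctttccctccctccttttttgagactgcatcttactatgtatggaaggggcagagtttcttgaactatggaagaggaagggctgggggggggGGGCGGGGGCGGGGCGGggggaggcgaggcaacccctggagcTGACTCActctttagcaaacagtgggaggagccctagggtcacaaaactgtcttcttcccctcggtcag
F3, chr3:121723287-121723536, plus strand: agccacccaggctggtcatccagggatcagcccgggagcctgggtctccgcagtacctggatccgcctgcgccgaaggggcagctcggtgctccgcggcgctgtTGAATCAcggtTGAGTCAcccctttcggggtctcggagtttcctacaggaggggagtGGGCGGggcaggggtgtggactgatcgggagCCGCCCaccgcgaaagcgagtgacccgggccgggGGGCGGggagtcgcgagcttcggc
Tfpi, chr2:84476760-84477009, minus strand: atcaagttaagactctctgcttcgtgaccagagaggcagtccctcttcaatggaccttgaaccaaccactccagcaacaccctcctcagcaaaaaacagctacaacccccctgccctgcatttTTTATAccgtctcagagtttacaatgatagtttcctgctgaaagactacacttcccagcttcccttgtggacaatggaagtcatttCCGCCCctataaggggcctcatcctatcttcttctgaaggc
Procr, chr2:155750967-155751216, plus strand: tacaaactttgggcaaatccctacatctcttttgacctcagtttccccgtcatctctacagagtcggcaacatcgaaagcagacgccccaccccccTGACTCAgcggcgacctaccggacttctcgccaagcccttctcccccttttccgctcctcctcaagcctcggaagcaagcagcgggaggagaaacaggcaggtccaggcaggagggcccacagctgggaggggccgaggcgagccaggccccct
The AP-1 motif, spelled TGANTCA, began at position -69 from the start of Plaur, at -146 and -135 of F3 and at -154 of Procr, and 7.81% of the 32851 windows in the table hold it. The table has 2 windows for Tfpi, of which the one shown belongs to the start farther upstream, and neither had an AP-1 match. The other Tfpi window had a GC box at -159 and no match to the other 3 motifs. The GC box, GGGCGG, is in 35.7% of windows and was matched 3 times each in Plaur and F3 and once in this Tfpi window. The TATA box, TATAAA, is in 13.6% of windows and was matched at -127 in this Tfpi window and at position 44 after the start of F3, past the bases shown. The TEAD motif GGAATG, in 14.7% of windows, was matched in none of the 4 windows shown. The window of Serpine2, not shown, had 6 GC box matches and no match to the other 3 motifs. The matches are descriptions of these letters and say nothing of which factor is bound. Motifs of NF-kB, SRF and EGR1 were also planned and were not searched.

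The 4 mice numbered 4, 1 in each group, stood apart from the other 8. Their columns summed to 482194 to 504337 FPKM, against 696286 to 765876 in the mice numbered 1 to 3, and the labels give no reason. The fit has no term for this, so differences within the mice numbered 4 and within the mice numbered 1 to 3 are given beside the results for colitis against normal and for BBR in colitis. The files hold no read counts. From the steps between low values, 3 reads on a transcript of 2000 bases were estimated at 0.0784 to 0.0884 FPKM for the mice numbered 4, and 0.11 to 0.127 FPKM for the rest. All members lay above this in every mouse. Nothing in the labels says whether mice of a group shared a cage or a day, and p-values measure the spread between these mice. Cdx2, Car1 and Muc2, markers of colon epithelium, were present in all 12 mice, with summed levels of 1366 to 7788 FPKM.

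**Figure D1:**
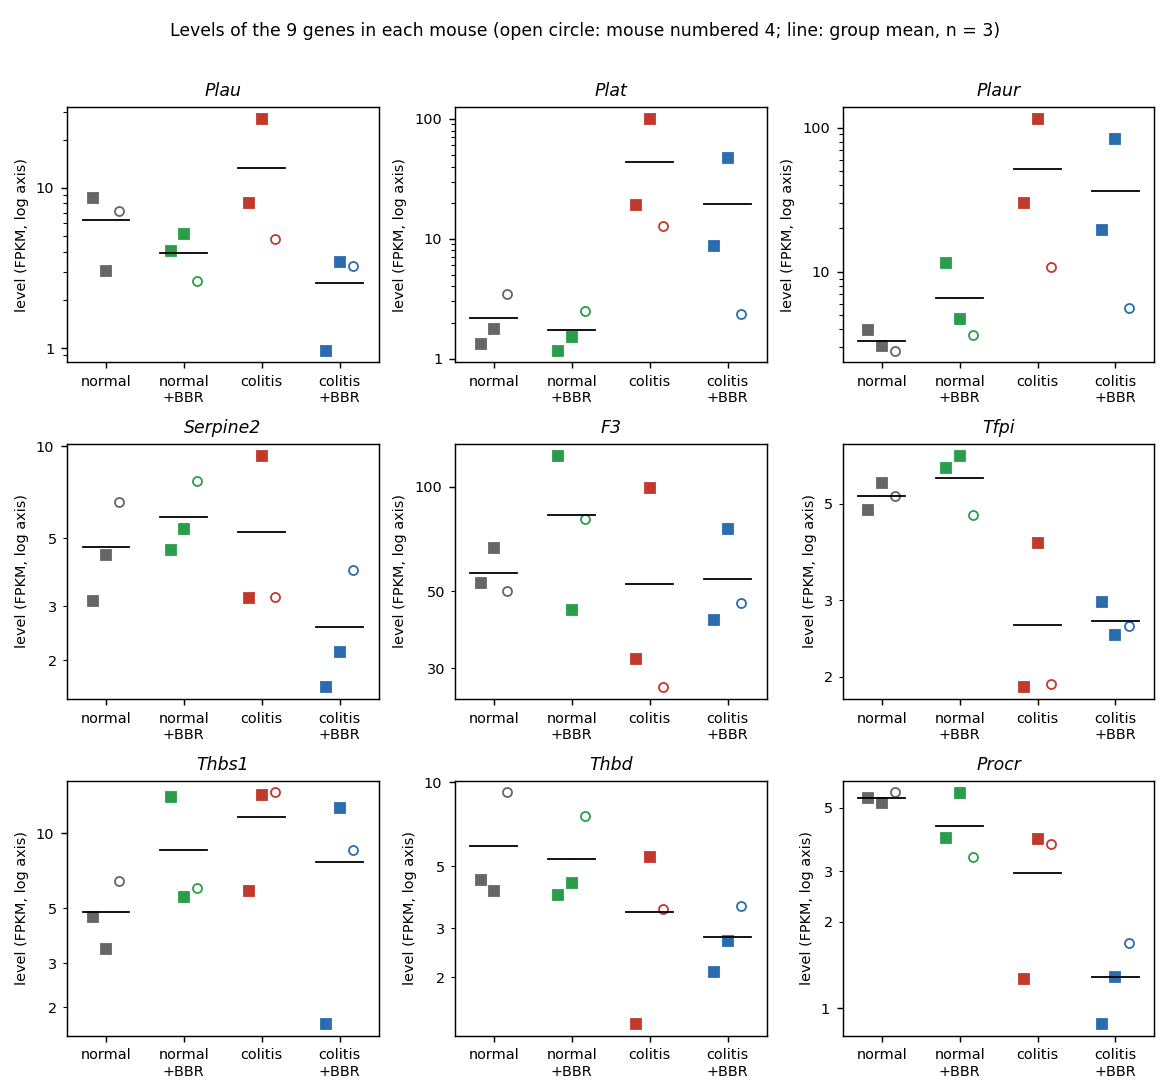
Level of each of the 9 genes in every mouse (y axis, FPKM on a log axis) by group (x axis), with squares for the mice numbered 1 to 3, open circles for the mouse numbered 4 and a line at the mean of 3 mice. Plat and Plaur lie higher in all colitis mice than in all normal mice, with colitis mouse 2 at 100.03 and 115 FPKM, while Tfpi and Procr lie lower.

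Plat, tissue plasminogen activator, had levels of 1.33, 1.77 and 3.43 FPKM in normal mice 1, 3 and 4. In colitis mice 1, 2 and 4 it stood at 19.3, 100.03 and 12.8 FPKM. The groups did not overlap, and colitis mouse 2 was far above the other colitis mice. The means were 2.18 ± 1.11 and 44.0 ± 48.6 FPKM (SD, n = 3 each), a 20.2-fold ratio of means that was 7.37-fold without colitis mouse 2. The fitted log2 difference was 3.79 (SE 0.96, 95% confidence interval 1.69 to 5.89), with an adjusted p of 0.0722 in limma, and 2.90 to 4.38 on leaving out 1 mouse. The exact two-sided permutation test gave p = 0.1, the smallest that 3 mice against 3 allow. The log2 difference was 1.87 between the mice numbered 4 and 4.75 among the mice numbered 1 to 3, where its adjusted p was 0.0447 and 5.25% of all genes passed the limit. With the colitis and normal mice fitted alone, or with a block for the mice numbered 4 (adjusted p of 0.038), Plat also passed the limit.

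Plaur, the urokinase receptor, had levels of 3.99, 3.07 and 2.84 FPKM in normal mice. The colitis mice had 29.9, 115 and 10.9 FPKM. Colitis mouse 2 was again the highest, and the lowest colitis mouse, number 4, was above every normal mouse. The difference on the log2 scale was 3.32 (SE 0.93, 95% confidence interval 1.28 to 5.36), with an adjusted p of 0.0968 in limma, and 2.43 to 4.13 on leaving out 1 mouse. The ratio of means was 15.7-fold, and 6.18-fold without colitis mouse 2. On the log2 scale Plaur differed by 1.90 between the mice numbered 4 and 4.03 among the mice numbered 1 to 3, where its adjusted p was 0.0487. With a block for the mice numbered 4 the adjusted p was 0.025.

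Plau, urokinase itself, overlapped between the groups. It was at 8.63, 3.03 and 7.23 FPKM in normal mice and at 8.11, 27.0 and 4.78 FPKM in colitis mice. Only colitis mouse 2 was above the normal range. The log2 difference was 0.81 (SE 0.65, 95% confidence interval -0.61 to 2.24), with an adjusted p of 0.455. It was -0.59 between the mice numbered 4 and 1.51 among the others, so its sign turned between them. Serpine2, the serpin that blocks both activators, had 3.12, 4.4 and 6.56 FPKM in normal mice and 3.2, 9.33 and 3.22 FPKM in colitis mice, and the ranges overlapped. Its log2 difference was 0.03 (95% confidence interval -0.98 to 1.05), and its sign turned without colitis mouse 2, to -0.47. It was -1.0 between the mice numbered 4 and 0.55 among the others.

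The order of the activator levels within a mouse was different in the groups. In each of the 3 normal mice Plau was the higher activator, with a Plat to Plau ratio of 0.154, 0.584 and 0.474. In each of the 3 colitis mice Plat was the higher, with ratios of 2.38, 3.70 and 2.68. The ratio is taken within a mouse, so it holds in colitis mouse 2, where both genes were high, as in the other colitis mice. The Plaur to Plau ratio was 0.393 to 1.01 in normal mice and 2.27 to 4.25 in colitis mice. These ratios were chosen after the values were seen and were not tested.

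**Figure D2:**
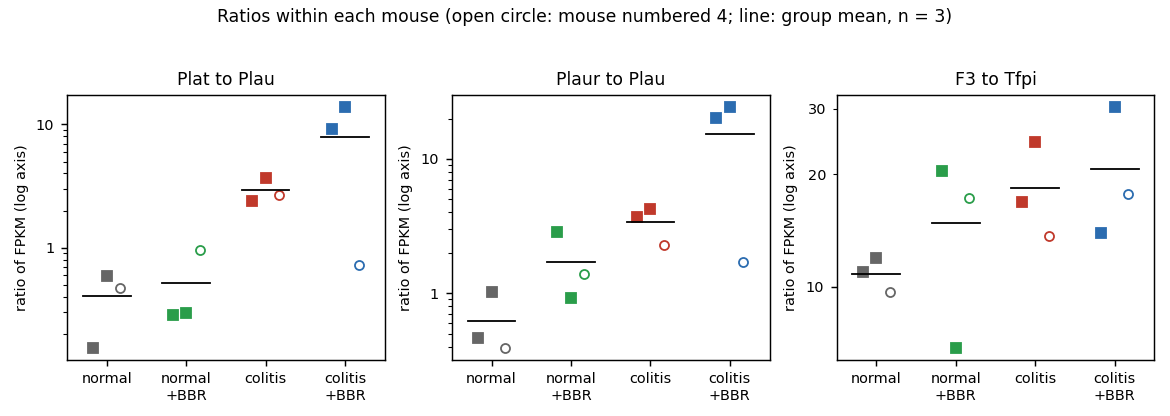
Ratio of FPKM within each mouse (y axis, log axis) for Plat to Plau, Plaur to Plau and F3 to Tfpi, by group (x axis), with squares for the mice numbered 1 to 3, open circles for the mouse numbered 4 and a line at the mean of 3 mice. The Plat to Plau ratio is below 1 in all 6 mice without DSS and above 2 in all 3 colitis mice, and the colitis mouse receiving BBR numbered 4 is at 0.721.

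F3, tissue factor, was the most abundant member in normal mice, with 52.9, 66.5 and 50.2 FPKM. Colitis mice had 31.9, 99.4 and 26.4 FPKM, so 2 of them were below and 1 was above all normal mice. The difference on the log2 scale was -0.36 (95% confidence interval -1.41 to 0.70), with an adjusted p of 0.659. It was -0.92 between the mice numbered 4 and -0.07 among the others. Tfpi, its inhibitor, had 4.84, 5.59 and 5.2 FPKM in normal mice and 1.89, 4.07 and 1.93 FPKM in colitis mice, with no overlap. The log2 difference was -1.05 (SE 0.30, 95% confidence interval -1.70 to -0.39), with an adjusted p of 0.1 in limma. It was -1.38 between the mice numbered 4 and -0.88 among the others. Without colitis mouse 2 it passed the limit at an adjusted p of 0.0428, and with a block for the mice numbered 4 at 0.0427. With each mouse centred on its median, which took the median of all genes from -0.32 to 0.02, it was -0.71, and with quantile normalization -0.63, and it no longer passed the unadjusted limit in either. The F3 to Tfpi ratio was 9.65 to 11.9 in normal mice and 13.7 to 24.4 in colitis mice, and like the other ratios it was chosen after the values were seen.

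Procr and Thbd, the endothelial protein C receptor and thrombomodulin, had lower mean levels in colitis, and Procr alone of the pair passed the unadjusted limit. Procr had 5.43, 5.19 and 5.67 FPKM in normal mice, the narrowest spread of any member, and 1.26, 3.89 and 3.74 FPKM in colitis mice. The difference on the log2 scale was -1.01 (SE 0.41, 95% confidence interval -1.90 to -0.11), with an adjusted p of 0.194 in limma. Colitis mouse 1 was the low value, and without it the difference was -0.50. Between the mice numbered 4 it was -0.59, and among the others -1.22. It was -0.67 with median centring and -0.58 with quantile normalization, and passed the unadjusted limit in neither. Thbd had 4.45, 4.08 and 9.23 FPKM in normal mice and 1.36, 5.39 and 3.51 FPKM in colitis mice, and the ranges overlapped. Its log2 difference was -0.87 (95% confidence interval -1.94 to 0.19), with an adjusted p of 0.303 in limma, and it was -1.37 between the mice numbered 4 and -0.62 among the others.

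Tfpi, Procr and Thbd are known for their place on endothelium, and the endothelial markers had lower levels in colitis too. The 6 markers Pecam1, Cdh5, Kdr, Tie1, Eng and Emcn summed to 25.2 to 30.4 FPKM in normal mice and 7.95 to 21.3 FPKM in colitis mice. All 6 had lower fitted means in colitis, 2 of them at P of at most 0.05, none passed the adjusted limit and none was at 0 in any mouse. Of all 15315 tested genes, 11293 had lower fitted means and 15.9% were lower at that P. Per unit of the endothelial marker sum, Tfpi was 0.171 to 0.222 in normal mice and 0.146 to 0.238 in colitis mice. For Procr these ranges were 0.187 to 0.214 and 0.159 to 0.283, and for Thbd 0.162 to 0.304 and 0.171 to 0.265. All 3 ratios overlapped between these groups, while the levels of Tfpi and Procr did not. In colitis mice 2, 3 and 4 receiving BBR the ratio of Tfpi was 0.360, 0.357 and 0.154, the first 2 above every mouse of the other groups. There the ratio of Procr was 0.107, 0.183 and 0.0998, with mice 2 and 4 below every mouse of the other groups, and that of Thbd was 0.213 to 0.385. Fewer endothelial cells in a sample and less of these RNAs per cell cannot be told apart in tissue RNA, and the part of either in the lower levels was not tested. The gene with the pattern nearest to Procr over the 12 mice was Pdgfra, a fibroblast marker. The 5 fibroblast markers summed to 233 to 379 FPKM in normal mice and 166 to 660 FPKM in colitis mice. In colitis 4 of them had lower fitted means, Pdgfra at -0.66 on the log2 scale, and none reached P of at most 0.05. The part of fibroblasts in the level of Procr was not tested.

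**Figure D3:**
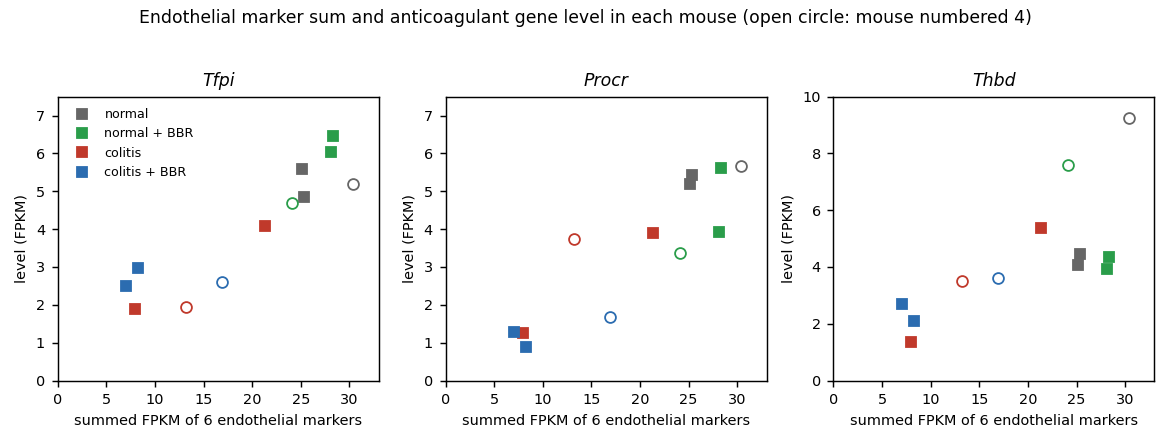
Level of Tfpi, Procr and Thbd (y axes, FPKM) against the summed FPKM of 6 endothelial markers (x axis) in each of the 12 mice, coloured by group, with open circles for the mice numbered 4. Colitis mice with and without BBR lie at sums of 7.01 to 21.3 FPKM and mice without DSS at 24.1 to 30.4 FPKM, and the 3 genes are mostly lower where the sum is lower.

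Other cell markers also differed between these libraries. The 5 neutrophil markers S100a8, S100a9, Csf3r, Cxcr2 and Retnlg summed to 0.26 to 2.03 FPKM in normal mice, with S100a8 at 0 in all 3, and to 45.0 to 492 FPKM in colitis mice. All 5 were higher, all 5 at P of at most 0.05 and 1 past the adjusted limit. Of all tested genes, 5.56% were higher at that P. The lowest neutrophil sum among colitis mice was that of mouse 4, which also had the lowest Plat and Plaur. The highest was that of mouse 1, at 492 FPKM against 474 FPKM in mouse 2, while mouse 2 had the highest Plat and Plaur. The 6 macrophage and monocyte markers summed to 122 to 156 FPKM in normal mice and 209 to 654 FPKM in colitis mice, with the highest sum in colitis mouse 2. Lyz2 made up 535 FPKM of that highest sum. The log2 differences of Adgre1 and Csf1r in colitis were 0.15 and 0.03. Mouse 2 was also the highest colitis mouse on the endothelial, fibroblast and platelet marker sums, at 21.3, 660 and 42.8 FPKM. Its neutrophil and smooth muscle sums were not the highest. The 6 smooth muscle markers summed to 1628 to 3039 FPKM in normal mice and 70.9 to 651 FPKM in colitis mice. The part of these cell types in the levels of Plat, Plaur and the other members was not tested.

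Thbs1, thrombospondin-1, had 4.59, 3.42 and 6.42 FPKM in normal mice. It stood at 5.88, 14.3 and 14.6 FPKM in colitis mice, of which mouse 1 was within the normal range. The log2 difference was 1.19 (SE 0.65, 95% confidence interval -0.25 to 2.62), with an adjusted p of 0.299 in limma. It was 1.51 with quantile normalization and 1.52 with median centring, and passed the unadjusted limit in both. It was 1.17 between the mice numbered 4 and 1.19 among the others. It was the single member whose highest colitis value was not that of mouse 2, which was highest for the other 8. The 5 platelet and megakaryocyte markers Pf4, Ppbp, Itga2b, Gp9 and Gp1bb, read because platelets store thrombospondin-1, summed to 18.8 to 29.6 FPKM in normal mice and 11.99 to 42.8 FPKM in colitis mice. Of the 4 that were tested, 3 had higher and 1 had lower fitted means, and none reached P of at most 0.05.

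Over the members, 2 of 9 were higher and 2 of 9 were lower in colitis at P of at most 0.05, the study's own limit, against 5.56% of all 15315 tested genes higher and 15.9% lower. With quantile normalization the count was 3 higher (Plat, Plaur and Thbs1) and 0 lower, against 9.62% and 10.1% of all genes, and with median centring the same 3 higher and 0 lower, against 9.42% and 8.13%. Without overlap, 2 of 9 were higher and 2 of 9 lower, against 7.1% and 22.2% of all genes. The adjusted limit of 0.05 was passed by 0 of 9 members and by 1.08% of all genes. The median log2 difference of the members was 0.03, and over all genes tested it was -0.32.

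BBR in colitis mice was compared next, with the same colitis group as above on the other side, so the 2 comparisons are not independent. Plau had the largest difference of the members. It was at 0.96, 3.45 and 3.26 FPKM in colitis mice receiving BBR numbered 2, 3 and 4, below the 4.78 to 27.0 FPKM of colitis mice, and also had the lowest mean of the 4 groups, 2.56 ± 1.39 FPKM (SD, n = 3). The difference on the log2 scale was -2.14 (SE 0.65, 95% confidence interval -3.57 to -0.72), with an adjusted p of 0.512 in limma. It was -0.54 between the mice numbered 4 and -2.94 among the others. Over its 17 alternative fits the adjusted p was 0.195 to 1. Markers of some cell types had lower levels in this comparison too, while all 6 smooth muscle markers had higher fitted means. The macrophage and monocyte markers summed to 112 to 238 FPKM in colitis mice receiving BBR, against 209 to 654 FPKM in colitis mice, with 6 of 6 lower fitted means and 4 at P of at most 0.05, among them Csf1r at -1.19 on the log2 scale. The fibroblast markers summed to 158 to 221 FPKM, against 166 to 660 FPKM, with 5 of 5 lower fitted means and 1 at that P, and none of either list passed the adjusted limit. Of all 15315 tested genes, 9495 had lower and 5819 higher fitted means, and 5.2% were lower at that P. The part of these cell types in the lower levels of Plau and the other genes was not tested.

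Procr had 0.88, 1.28 and 1.69 FPKM in colitis mice receiving BBR, and colitis mouse 1, at 1.26 FPKM, was within that range. The log2 difference was -1.04 (SE 0.41, 95% confidence interval -1.93 to -0.14), with an adjusted p of 0.691 in limma. It was -1.10 between the mice numbered 4 and -1.0 among the others. Serpine2 had 1.63, 2.13 and 3.94 FPKM, against 3.2 to 9.33 FPKM in colitis mice, and its log2 difference was -0.91 (95% confidence interval -1.92 to 0.11). It was 0.28 between the mice numbered 4 and -1.51 among the others, so its sign turned.

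Plat and Plaur were spread widely over the colitis mice receiving BBR. Plat was at 8.75, 47.5 and 2.35 FPKM and Plaur at 19.5, 83.6 and 5.59 FPKM in mice 2, 3 and 4. Mouse 4 was within the normal range of Plat, and mice 2 and 3 were far above it. The neutrophil marker sum was 2.51 FPKM in that mouse 4, against 217 and 197 FPKM in mice 2 and 3. The smooth muscle sum was 3435 FPKM there, against 475 and 494 FPKM in the others, so this library stood apart within its group on both lists. Mouse 3, the highest for Plat and Plaur, stood apart on the 3 mesothelium markers Msln, Upk3b and Lrrn4, which summed to 10.1 FPKM in it and to 1.17 and 1.51 FPKM in mice 2 and 4. In colitis mice 1, 2 and 4 that sum was 5.35, 12.2 and 0.60 FPKM, most of it Msln, and in normal mice 0.28 to 2.52 FPKM. The 5 stratified squamous markers Krt5, Krt14, Krt13, Trp63 and Dsg3 summed to 4.95 FPKM in mouse 3 against 0.65 and 1.88 FPKM in mice 2 and 4, and to 3.5, 7.24 and 1.95 FPKM in colitis mice 1, 2 and 4, against 1.28 to 2.71 FPKM in normal mice. Krt5 and Trp63 were at most 0.18 FPKM in any mouse. The part of any of these cells in the levels of Plat and Plaur was not tested. The log2 difference of Plat from colitis was -1.53 (95% confidence interval -3.63 to 0.56), and without mouse 4 of the colitis mice receiving BBR it was -0.51. It was -2.40 between the mice numbered 4 and -1.10 among the others. That of Plaur was -0.67 (95% confidence interval -2.72 to 1.37). It turned to 0.27 without mouse 4 of the colitis mice receiving BBR and to 0.21 without colitis mouse 2. Between the mice numbered 4 it was -0.95, and among the others -0.54.

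Within the colitis mice receiving BBR numbered 2 and 3, Plat exceeded Plau by ratios of 9.12 and 13.8, and Plaur exceeded Plau by 20.3 and 24.2. These are above the ratios of every colitis mouse. In mouse 4 they were 0.721 and 1.72, below every colitis mouse, so the group lay on both sides.

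The 4 other members passed neither limit with BBR in colitis. F3 was at 41.4, 75.6 and 46.2 FPKM, Tfpi at 2.97, 2.5 and 2.61 FPKM, Thbd at 2.09, 2.70 and 3.60 FPKM and Thbs1 at 1.71, 12.7 and 8.56 FPKM. The log2 differences were 0.26 for F3, 0.12 for Tfpi, -0.12 for Thbd and -0.89 for Thbs1, and all confidence intervals held 0. Leaving out 1 mouse gave -1.45 to -0.04 for Thbs1, the latter without mouse 2 of the colitis mice receiving BBR. Between the mice numbered 4 and among the others, the differences were 0.80 and -0.01 for F3, 0.42 and -0.03 for Tfpi, 0.04 and -0.19 for Thbd, and -0.77 and -0.95 for Thbs1. The interval for Tfpi was -0.53 to 0.77, the narrowest of the 9. The 3 Tfpi values in colitis mice receiving BBR lay between 2.5 and 2.97 FPKM, below all 6 mice without DSS. The adjusted limit was passed by 0 of 9 members and by 0% of all genes, while 182 of the 15315 genes were higher and 796 lower at an unadjusted P of at most 0.05. At that P, 0 of 9 members were higher, against 1.19% of all genes, and 2 of 9 were lower, against 5.2%. Plau was the single member of 9 whose groups did not overlap, and it was lower, against 5.66% of all genes. The members' median was -0.89, and that of all genes tested was -0.09.

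**Figure D4:**
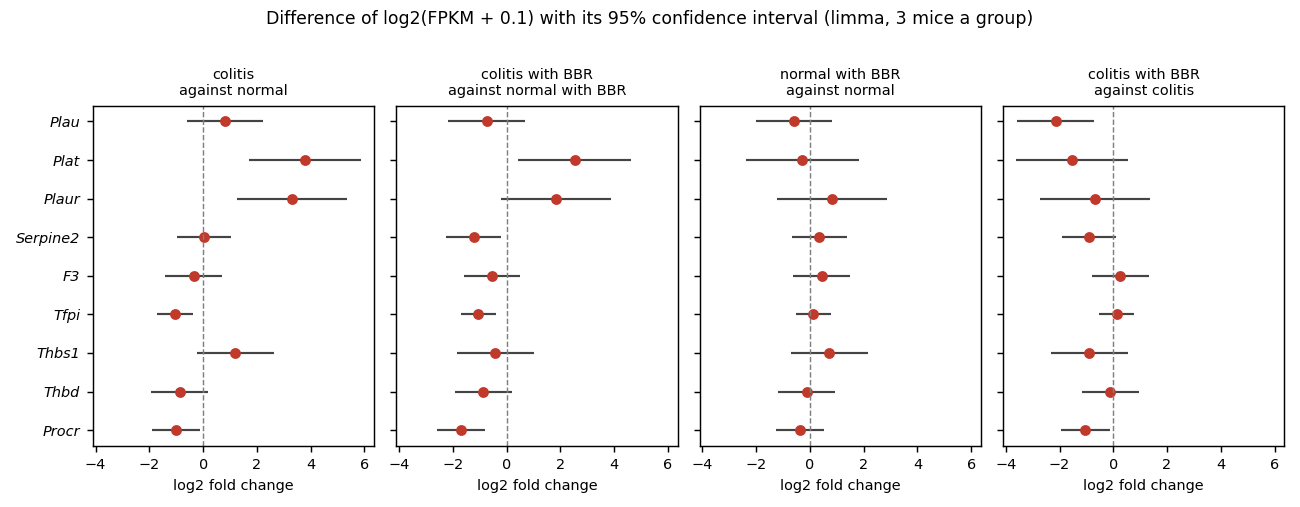
Log2 fold change of each of the 9 genes (x axis, difference of log2(FPKM + 0.1)) in 4 comparisons, with points for the estimate and lines for its 95% confidence interval from limma with 3 mice a group. The intervals of Plat, Plaur, Tfpi and Procr leave out 0 in colitis against normal, and those of Plau and Procr do so in colitis with BBR against colitis, before adjustment over all genes.

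In normal mice receiving BBR no member reached P of at most 0.05, against 1.36% of all genes, and 0% of genes passed the adjusted limit. The largest differences were 0.82 for Plaur and 0.73 for Thbs1. Plaur was at 11.5, 4.73 and 3.64 FPKM and Thbs1 at 14.0, 5.54 and 6.02 FPKM in mice 1, 3 and 4. Mouse 1 was the highest for both, and F3, at 123, 44.2 and 81.1 FPKM, was highest in that mouse too. Procr was at 3.93, 5.61 and 3.38 FPKM, Thbd at 3.94, 4.35 and 7.59 FPKM, Tfpi at 6.05, 6.45 and 4.7 FPKM and Serpine2 at 4.6, 5.35 and 7.68 FPKM. These values overlapped those of normal mice for each of the 9 genes. Plau, at 4.05, 5.13 and 2.62 FPKM, and Plat, at 1.16, 1.5 and 2.51 FPKM, had log2 differences of -0.59 and -0.28.

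Colitis mice receiving BBR were also set against normal mice receiving BBR, a comparison that shares no mouse with colitis against normal. Procr had a log2 difference of -1.68 (SE 0.41, 95% confidence interval -2.58 to -0.78), with an adjusted p of 0.196 in limma. Tfpi was at -1.05 (95% confidence interval -1.71 to -0.40), with an adjusted p of 0.214, and at -0.55 with quantile normalization and -0.60 with median centring. Serpine2 was at -1.23 and Plat at 2.54, each with an adjusted p of 0.222, and Plaur was at 1.83 with an adjusted p of 0.279. At P of at most 0.05 there were 4 of 9 members, Plat, Serpine2, Tfpi and Procr, against 19.7% of all genes. Serpine2 and Tfpi did not pass it with either scaling, which left 2 of 9, against 12.5% of all genes with quantile normalization and 11.1% with median centring. The median of all genes was -0.40 as deposited, -0.03 with quantile normalization and 0.06 with median centring. Serpine2, Tfpi, Thbd and Procr, 4 of 9, were lower with no overlap, against 18% of all genes. The adjusted limit was passed by 0 of 9 members and 0.0392% of all genes. Among the mice numbered 1 to 3, Plat and Procr passed it, where 15% of all genes did, and without mouse 4 of the colitis mice receiving BBR, Plat, Serpine2 and Procr did, beside 14.7% of all genes. Plat differed by 3.85 on the log2 scale among the mice numbered 1 to 3 and by -0.09 between the mice numbered 4, and Procr by -2.04 and -0.96. All 6 endothelial markers were lower at P of at most 0.05 in this comparison, with sums of 7.01 to 16.9 FPKM against 24.1 to 28.4 FPKM. Of the fibroblast markers 3 of 5 were lower at that P and of the neutrophil markers 4 of 5 were higher, with neutrophil sums of 2.51 to 217 FPKM against 0.36 to 2.54 FPKM. At that P 17.3% of all genes were lower and 2.37% higher. The part of these cell types in the levels of the members was not tested.

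Ordered from the lowest, the group means of Plau ran from colitis with BBR over normal with BBR and normal to colitis, with means of 2.56, 3.93, 6.30 and 13.3 FPKM, and each neighbouring pair overlapped. For Plat the order was normal with BBR, normal, colitis with BBR, colitis, with 1.72, 2.18, 19.5 and 44.0 FPKM, and for Plaur normal, normal with BBR, colitis with BBR, colitis, with 3.30, 6.62, 36.2 and 51.9 FPKM. In both, neighbours overlapped at every step. For Tfpi the means were 2.63 FPKM in colitis, 2.69 in colitis with BBR, 5.21 in normal and 5.73 in normal with BBR mice, and the step between the second and the third was the single one without overlap. For Procr they were 1.28 in colitis with BBR, 2.96 in colitis, 4.31 in normal with BBR and 5.43 FPKM in normal mice, with overlap between neighbours. The same order held for Thbd, at 2.80, 3.42, 5.29 and 5.92 FPKM. The means of F3 were 52.6 to 82.8 FPKM, of Serpine2 2.57 to 5.88 FPKM and of Thbs1 4.81 to 11.6 FPKM over the groups, and neighbours in their orders overlapped.

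The interaction, the BBR difference in colitis minus the BBR difference in normal mice, was tested for each gene. No member reached P of at most 0.05, against 2.42% of all genes, and 0% of genes passed the adjusted limit. The lowest P was that of Serpine2, at -1.26, followed by Thbs1 at -1.61 and Plau at -1.55. The intervals were wide, -3.57 to 0.46 for Plau and -3.64 to 0.41 for Thbs1.

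A wider list of 62 genes of coagulation, fibrinolysis and their receptors was read beside the members. Of these, 54 were in the table and 45 passed the filter at a mean of 0.1 FPKM. In colitis against normal, 2 of the 45 rose and 1 fell past the adjusted limit, against 1.08% of all genes, and 5 were higher and 8 lower at P of at most 0.05, against 5.56% and 15.9% of all genes. Their median log2 difference was -0.34, against -0.32 over all genes. With BBR in colitis 0 of 45 passed the adjusted limit, against 0% of all genes, and 1 was higher and 4 were lower at P of at most 0.05, against 1.19% and 5.2%. For genes named below by their difference in colitis, the BBR comparison uses the same colitis mice and is not independent of that choice.

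F10, coagulation factor X, the protease that the tissue factor complex activates, rose in colitis. It was at 0.03, 0.03 and 0.11 FPKM in normal mice and 0.70, 2.77 and 0.69 FPKM in colitis mice. Normal mice 1 and 3 were below the worth of 3 reads on its longest transcript of 2503 bases, 0.0926 and 0.0935 FPKM, so the size of its difference depends on the pseudocount. On the log2 scale used it was 3.0 (SE 0.59) with an adjusted p of 0.0392. It was 1.07 with a pseudocount of 1 and 4.27 with one of 0.01 and passed the adjusted limit with neither, and leaving out 1 mouse left it past the limit in 1 of 6 fits. It was 1.91 between the mice numbered 4 and 3.54 among the others. It was at 0.18, 0.41 and 0.09 FPKM in colitis mice receiving BBR, and the log2 difference from colitis was -2.02 with an adjusted p of 0.51, and -2.06 and -2.0 in the 2 sets of mice.

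Tfpi2, a relative of Tfpi that inhibits plasmin and other matrix-acting proteases, fell in colitis. It was at 3.51, 2.02 and 1.83 FPKM in normal mice and 0.28, 0.67 and 0.44 FPKM in colitis mice, a log2 difference of -2.18 (SE 0.41) with an adjusted p of 0.0328. It was -1.85 with an adjusted p of 0.0562 with median centring and -1.71 with an adjusted p of 0.061 with quantile normalization. It was -1.84 between the mice numbered 4 and -2.35 among the others. In colitis mice receiving BBR it was at 1.60, 1.17 and 1.18 FPKM, above every colitis mouse, with a log2 difference of 1.38 and an adjusted p of 0.512, and with 1.25 between the mice numbered 4 and 1.44 among the others. Higher values without overlap in this comparison made up 1.42% of all genes.

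Cd47, a receptor for thrombospondin-1 that also holds off phagocytosis, rose in colitis, from 9.70, 12.1 and 13.3 FPKM in normal mice to 23.1, 23.9 and 31.9 FPKM. The difference on the log2 scale was 1.16 (SE 0.24) with an adjusted p of 0.0477, and it was 1.26 between the mice numbered 4 and 1.11 among the others. Leaving out 1 mouse left Cd47 past the limit in 0 and Tfpi2 in 1 of 6 fits. In colitis mice receiving BBR it was at 8.97, 15.9 and 15.1 FPKM, with no overlap with colitis, a log2 difference of -1.0 and an adjusted p of 0.435, and -1.07 and -0.97 in the 2 sets of mice. Cd36, the other thrombospondin-1 receptor of the list and a fatty acid carrier, was at 2.73, 4.9 and 11.3 FPKM in normal mice and 0.59, 0.95 and 1.73 FPKM in colitis mice. Its log2 difference was -2.31 with an adjusted p of 0.0811, and -2.64 and -2.14 in these 2 sets of mice. In limma with a block for the mice numbered 4 the adjusted p of Cd36 was 0.0052, where 9.22% of all genes passed. With the replicate block it was 0.0122, where 4.79% passed, and among the mice numbered 1 to 3 it was 0.0424, where 5.25% passed.

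Itgav, the integrin alpha V chain, a partner of the urokinase receptor at the cell surface, was at 5.42, 6.81 and 7.57 FPKM in normal mice and 13.1, 29.0 and 10.9 FPKM in colitis mice. The groups did not overlap, and colitis mouse 2 was the highest, as it was for Plaur. The log2 difference was 1.28 (SE 0.44) with an adjusted p of 0.141 in limma, and it was 0.52 between the mice numbered 4 and 1.67 among the others. In colitis mice receiving BBR it was at 8.62, 21.9 and 7.04 FPKM, which overlapped with colitis. Anxa5, annexin A5, which binds phosphatidylserine and is known as an anticoagulant, was at 47.8, 85.9 and 41.4 FPKM in colitis mice and at 15.0, 35.5 and 29.0 FPKM in colitis mice receiving BBR, with no overlap. Its log2 difference was -1.15 (SE 0.33) with an adjusted p of 0.51 in limma, and it was -0.51 between the mice numbered 4 and -1.47 among the others. Anxa5 was named for its fall in this same comparison, so its place below every colitis mouse follows in part from that choice. Lower values without overlap there made up 5.66% of all genes. Of the members, Plau also lay below every colitis mouse, while Plat and Plaur overlapped with colitis.

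The remaining genes chosen by size were scarce. Hpn, hepsin, a membrane serine protease, was at 3.22, 2.07 and 2.56 FPKM in normal mice and 0.04, 0.29 and 0.41 FPKM in colitis mice, a log2 difference of -3.14 with an adjusted p of 0.0699. Colitis mouse 1 was below the worth of 3 reads, 0.127 FPKM, and the difference was -1.54 with a pseudocount of 1, where it passed the adjusted limit, and -3.81 with one of 0.01. It was -2.38 between the mice numbered 4 and -3.52 among the others. In limma Hpn also passed the adjusted limit with a block for the mice numbered 4, at 0.0278, where 9.22% of all genes passed. It did so among the mice numbered 1 to 3, at 0.0366, and with the compared groups alone, at 0.0236. Those 2 fits called 5.25% and 3.19% of all genes. Serpina10, the protein Z-dependent protease inhibitor, was at 0, 0 and 0.03 FPKM in normal mice and 0.06, 0.59 and 0.23 FPKM in colitis mice. Its normal values were too low for a fold. F2rl3, the thrombin receptor Par4, was at 0.45, 1.06 and 0.37 FPKM in colitis mice and 0.12, 0.04 and 0.24 FPKM in colitis mice receiving BBR, a log2 difference of -1.61 with an adjusted p of 0.51. The first 2 of these mice were below the worth of 3 reads, 0.135 and 0.134 FPKM, and the difference was -0.50 with a pseudocount of 1 and -2.28 with one of 0.01. It was -0.47 between the mice numbered 4 and -2.19 among the others.

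**Figure D5:**
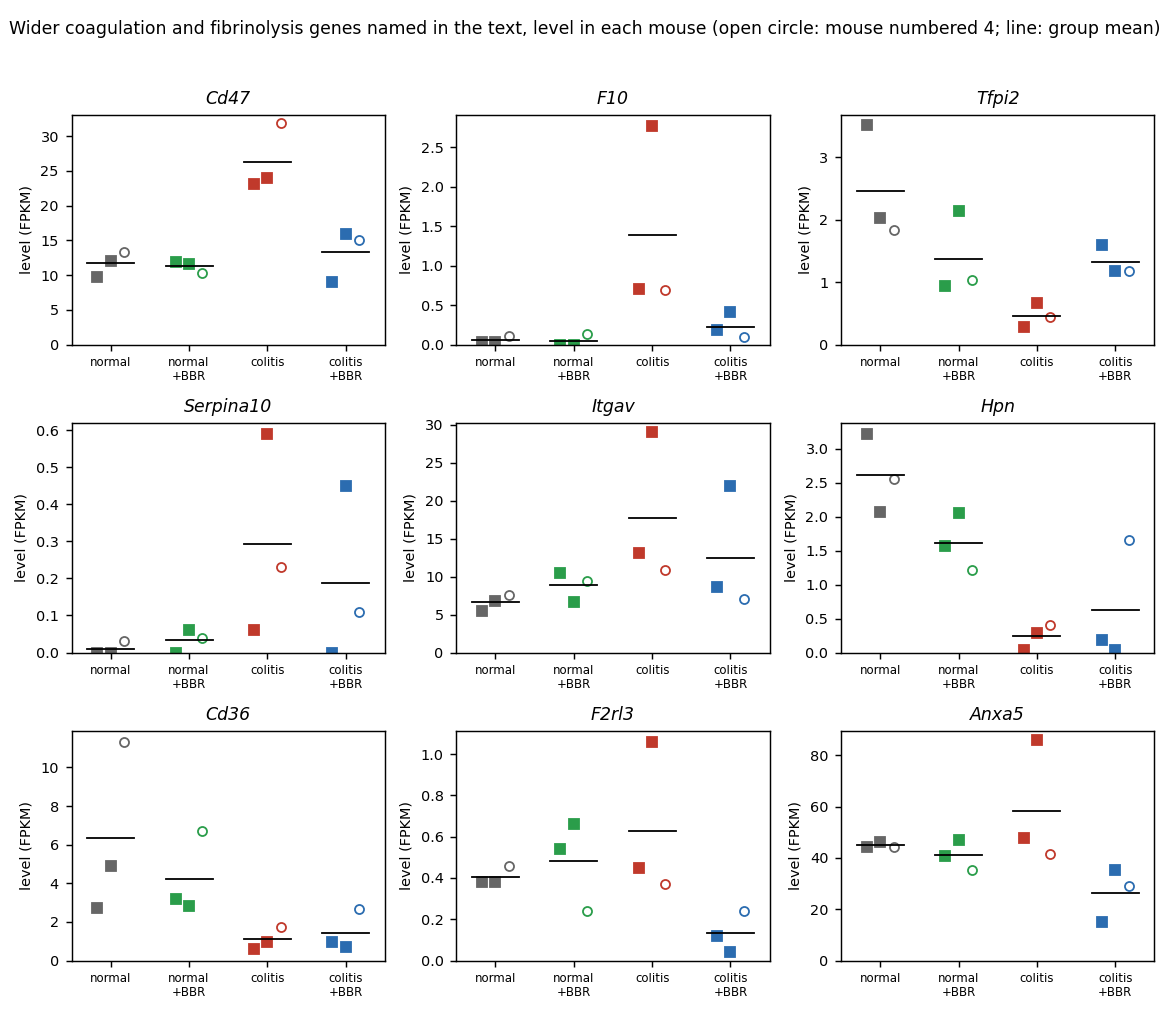
Level in every mouse (y axes, FPKM, from 0) of 9 wider coagulation and fibrinolysis genes by group (x axis), with squares for the mice numbered 1 to 3, open circles for the mouse numbered 4 and a line at the mean of 3 mice. Cd47, F10 and Itgav are higher and Tfpi2, Hpn and Cd36 lower in all 3 colitis mice than in all 3 normal mice, and Cd47, F10, F2rl3 and Anxa5 are lower and Tfpi2 higher in colitis mice receiving BBR than in colitis mice.

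The genes with the most similar pattern over the 12 mice were found for each member by the root mean square difference of log2 values after centring each gene, among 11942 genes. For Procr they were Pdgfra and Wnt5a, at 0.28 and 0.31, against an SD of 0.93 for Procr itself. For Thbd they were Dmwd and Calcrl, at 0.19 and 0.21, and for Tfpi Camk1 and Tsc22d1, at 0.25 and 0.26. For F3 they were Maff and Kif5c, at 0.31 and 0.34, and for Serpine2 Cnrip1 and Pls3, both at 0.26. Plat, with Tnfrsf23 and Marcksl1 at 0.60 each, and Plaur, with Gpat3 at 0.56 and Sema7a at 0.58, had more distant neighbours but also the largest SDs, 2.12 and 1.82. Plau had Prim2 and Tbc1d9 at 0.49 and 0.59, and Thbs1 had Ctnnal1 and Pmepa1 at 0.41 and 0.43. The 12 points share the groups and the difference of the mice numbered 4, so these distances are a description.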

How the data were processed

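Per the submitters' processing notes and the study's methods, reads were filtered with SOAPnuke and aligned to mm9 with Bowtie2 2.2.5, and RSEM 1.2.12 gave the expression levels. The authors deposited 1 value per gene and mouse, with no unit stated. The deposited values were read from their size as FPKM (TPM is possible), and no scaling between mice was added. The sample labels name a TruSeq kit and colorectum, while the methods name ribosomal RNA depletion, another sequencer and rectum. Groups and mouse numbers were taken from the labels. Normal mice with and without BBR carry the numbers 1, 3 and 4, colitis mice 1, 2 and 4, and those with BBR 2, 3 and 4.

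The 15315 genes whose mean reached 0.1 FPKM were fitted as log2(FPKM + 0.1) in limma 3.58.1 (R 4.3.3), with 1 mean per group over 12 mice and a trend on mean expression. Benjamini-Hochberg adjusted p-values cover every tested gene and have a limit of 0.05, and the unadjusted limit of the study, 0.05, stands beside it. Fold changes on this scale understate those of low genes. The fit was tested on simulated data, single genes also by an exact two-sided permutation test, and promoters and figures were handled in Python 3.11.15. Shares of low values near whole reads were too small to recover counts, so the worth of 1 read is approximate and covers counting error only.

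The 9 genes, the gene lists, tests and alternatives were chosen with earlier results of these data known. Named beside the members are the wider genes past the adjusted limit in colitis, then the 2 largest differences each way at the unadjusted limit in colitis and with BBR in colitis, where there were any, and the 2 genes nearest each member. Some genes of the lists are not reported here and were left out of the lists and their counts. Tried as alternatives were pseudocounts of 1 and 0.01, filtering at a mean of 1 or not at all, quantile normalization, median centring, fits of the compared groups alone or without the trend, a block for the replicate number, a block for mice numbered 4, leaving these mice out, and leaving out each mouse.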

Additional observations from a re-analysis of the deposited data

Results flagged for a closer look

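Tfpi2 had BBR differences of opposite direction in normal and colitis mice, and the interaction term passed the unadjusted limit of 0.05, as it did for 2.42% of all genes. The BBR difference in colitis minus that in normal mice was 2.2 on the log2 scale (SE 0.58) in limma, with an adjusted p of 1, so it did not pass the adjusted limit. All 3 normal mice receiving BBR, at 0.94, 2.13 and 1.04 FPKM, lay below the normal mean of 2.45 FPKM, and all 3 colitis mice receiving BBR lay above the colitis mean of 0.463 FPKM. The normal mean was raised by mouse 1, at 3.51 FPKM, and the mouse at 2.13 FPKM lay above the other normal mice, at 2.02 and 1.83 FPKM, so normal mice with and without BBR overlapped. The difference was seen among 18 named genes and rests on 3 mice a group. Tfpi2 was named for its lower level in colitis than in normal mice. The interaction reuses those values, and that choice favours a positive value, so its P is not independent support.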

How the results depend on the processing

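The number of members past the adjusted limit in colitis against normal was 0, and it became 1 with the compared groups alone (Plat), 3 with a block for the mice numbered 4 (Plat, Plaur and Tfpi) and 2 among the mice numbered 1 to 3 (Plat and Plaur), in fits that called 3.19%, 9.22% and 5.25% of all genes against 1.08% as reported, and leaving out 1 mouse gave 0 to 1 (Tfpi, without colitis mouse 2). In colitis with BBR against normal with BBR it became 2 among the mice numbered 1 to 3 and 0 to 3 on leaving out 1 mouse, and in the other 3 comparisons it was 0 throughout. The wider genes past the limit in colitis, 3 as reported, were 1 with a pseudocount of 0.01, 0 with a filter at a mean of 1, 5 with the replicate block, 9 with a block for the mice numbered 4, 4 among the mice numbered 1 to 3 and 0 to 1 on leaving out 1 mouse, of 45 tested as reported. With the replicate block 1 member passed, Tfpi at an adjusted p of 0.0421, and 734 of all genes (4.79%) against 165. The numbers were not shown to pair the mice: deviations of same-numbered mice correlated at 0.34 over 13 pairs, the lowest at 0.078, with 0.497 over the 6 pairs numbered 4, 0.205 over the 7 others and -0.103 over 41 pairs of different numbers, and 5 of 12 mice matched best with a mouse of their own number. All genes called in colitis were 71 (filter at a mean of 1) to 1412 (block for the mice numbered 4) over the alternatives fitted to all 12 mice and 11 to 211 on leaving out 1 mouse, against 165 as reported, and the cause was not tested.

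Of 1010 values of named genes under alternatives, 31 turned sign, all of them from fits where the gene did not pass the limit. With quantile normalization these were Thbd with BBR in colitis (0.01), Thbs1 in colitis with BBR against normal with BBR (0.07) and the interaction of Tfpi (0.08), and with median centring the same 3 (0.03, 0.02 and 0.11). With the replicate block Serpine2 in colitis was -0.12, and among the mice numbered 1 to 3 F3 and Tfpi with BBR in colitis were -0.01 and -0.03. Leaving out 1 mouse gave, in colitis against normal, -0.47 to 0.30 for Serpine2 and -0.95 to 0.01 for F3. With BBR in colitis it gave -1.67 to 0.27 for Plaur, -0.10 to 0.85 for F3, -0.06 to 0.47 for Tfpi and -0.65 to 0.30 for Thbd. With BBR in normal mice it gave -0.57 to 0.09 for Plat and -0.41 to 0.25 for Thbd, for Thbs1 in colitis with BBR against normal with BBR -0.99 to 0.42, and for the interaction -0.57 to 0.41 for F3 and -0.19 to 0.35 for Tfpi. In colitis the 3 scalings gave 60.6%, 70.4% and 66.7% of calls higher, as deposited, with quantile normalization and with median centring.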
